A study of Mus musculus with 4 samples.

Results

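This report describes 45 mouse genes that copy DNA or supply the nucleotides for it, among 27179 genes in a table of RNA-seq values from acute myeloid leukemia (AML). The members are a written list, matched to the table through Entrez gene IDs and mouse symbols, and all 45 were found. They were grouped by role into origin recognition and licensing, the MCM helicase, helicase activation, polymerases and primase, the sliding clamp and its loader, single-strand DNA binding, joining of Okazaki fragments, nucleotide supply, chromatin assembly and control of the step from G1 to S phase. The measured cells were leukemia stem cells (LSCs) of an AML mouse model, taken from bone marrow by flow sorting for a yellow fluorescent protein, Mac-1 and c-Kit. There were 2 B7-H4-null samples and 2 wild-type samples, all of strain C57BL/6. B7-H4, a B7 family protein that restrains T cells, was thus the variable of the study. The oncogene of the model, the age of the mice, the cells that lacked B7-H4 and any pooling of mice were not given in the sources used here. Nothing says that the 2 samples of a genotype came from separate mice, so p-values measure the spread among these samples only, and that spread may be technical.

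DNA is copied once per cell cycle. In G1 phase the origin recognition complex, with Cdc6 and Cdt1, loads the ring-shaped MCM helicase onto DNA, and in S phase Cdc45 and the GINS complex turn it into a moving helicase. Polymerase alpha with primase starts each strand, polymerases epsilon and delta extend it on the PCNA clamp, and ribonucleotide reductase, thymidylate synthase and thymidine kinase supply the building blocks. Many of these genes are transcribed under E2F factors and are widely used as markers of cycling cells, including blood progenitors and leukemia cells.

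The E2F factors bind sites of a known form, so promoter sequence is shown for 4 members whose window held such letters upstream of the gene. RefSeq promoter windows (build GRCm38.p6, 250 bases before and 50 bases after a start) were at hand for 37 members and 43 starts. Gins1, Gins2, Gins4, Pole, Rfc2, Ccne2, Mcm4 and Prim2 had none. The letters TTTGGCGC, TTTGCCGC, TTTCGCGC and TTTCCCGC were searched on both strands, and matches could overlap. They occurred in the windows of 13 of 37 members (35.1%) and of 704 of 27025 genes with a window (2.60%). CCAAT, searched in the same way, occurred in 23 of 37 members (62.2%) and 11096 genes (41.1%). A match is a description of these letters and not a bound site. The stretches below lie before the start and outside the gene's annotated span, are read 5′ to 3′ on the gene's strand, and carry the E2F letters in capitals. They are at chr1:128359715-128359845 (minus strand, 3 matches, 2 of them overlapping), chr8:75109326-75109397 (plus strand, 2 overlapping matches), chr8:95633488-95633555 (plus strand, 1 match) and chr5:151651209-151651248 (minus strand, 1 match). For Gins3 and Rfc3 bases just after the start were found in a GENCODE transcript of the gene, and for Mcm6 and Mcm5 they were not.

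Mcm6: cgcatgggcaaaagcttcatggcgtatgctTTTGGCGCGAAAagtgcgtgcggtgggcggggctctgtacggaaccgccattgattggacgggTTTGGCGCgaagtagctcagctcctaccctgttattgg
Mcm5: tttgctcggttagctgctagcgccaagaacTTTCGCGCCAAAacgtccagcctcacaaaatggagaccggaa
Gins3: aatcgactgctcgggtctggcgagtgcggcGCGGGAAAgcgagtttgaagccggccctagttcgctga
Rfc3: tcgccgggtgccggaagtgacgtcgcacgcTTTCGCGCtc

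Levels are in RPKM, which divides reads by gene length and by library total. Division by the total does not settle the scale between libraries. The factors of a further median-ratio scaling ran from 0.929 for B7-H4-null replicate 1 to 1.050 for wild-type replicate 2, and some results below depended on it. The scaling totals were 9419425 to 10814448 reads per library. Members lay between 3.57 and 203 RPKM and rested on 102 to 6380 reads per library. Their median level over the 4 libraries was 38.1 RPKM, against 13.3 RPKM over the 12107 genes tested, and 38 of the 45 lay above the median of all genes tested. All 45 passed the filter of 1 RPKM in at least 2 libraries. The spans of 20 members, among them Cdc45, Rpa1, Fen1, Lig1, Tk1, Chaf1a and E2f1, overlap another gene, and the libraries do not mark strand, so reads of both genes cannot be told apart there. The sort markers were present in every library. Itgam, a chain of Mac-1, had 82.9 and 59.9 RPKM in B7-H4-null cells, against 114 and 86.9 RPKM in wild-type cells, without overlap (limma adjusted p = 0.556). Itgb2, the other chain, had 123 and 146 RPKM in B7-H4-null, against 213 and 213 RPKM in wild type, also without overlap (limma adjusted p = 0.371). Kit had 11.02 and 9.37 RPKM in B7-H4-null, against 24.0 and 7.19 RPKM in wild type, with overlap. Thus 2 of the 3 sort markers lay lower without overlap (66.7%, against 28% of all genes).

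No replication gene was called different between the genotypes. The test used was limma on log2(RPKM + 1) with Benjamini-Hochberg adjustment over all 12107 genes. Of the 45 members 0 were called higher and 0 lower in B7-H4-null, against 5 genes (0.0413%) called higher and 7 (0.0578%) called lower in the whole table. With so few genes called, a count of 0 among 45 does not set the members apart. With 2 samples of each genotype the test can miss real differences, so a member that was not called may still differ. At an unadjusted p under 0.05 there were again 0 members, against 12.3% of all genes, and voom on recovered reads also called 0 with 0 under that level. Differences in log2(RPKM + 1), B7-H4-null minus wild type, ran from −0.38 for Fen1 to 0.55 for Pola2, and the smallest adjusted p was 0.565 (limma), for Cdc45.

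The differences were small as well as short of the threshold. Ratios of mean RPKM, B7-H4-null over wild type, ran from 0.796 to 1.46. The 95% confidence interval of the log2 difference stayed inside −1 to 1, a 2-fold change either way, for 38 of 45 members (84.4%), against 52.4% of all genes tested. The intervals of Pola2, Pola1, Rfc2, Pcna, Cdc6 and Cdc45 reached above 1, and that of Fen1 reached below −1. The median difference was 0.11 over the members and −0.09 over all genes tested. Of the members 27 lay above 0 and 18 below (60% above, against 41.5% of all genes). After median-ratio scaling of the libraries the split was 33 and 12, but the median over all genes tested also rose, from −0.09 to 0.006. The members' median lay 0.19 above that of all genes tested before this scaling and 0.20 above it after.

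**Figure D1:**
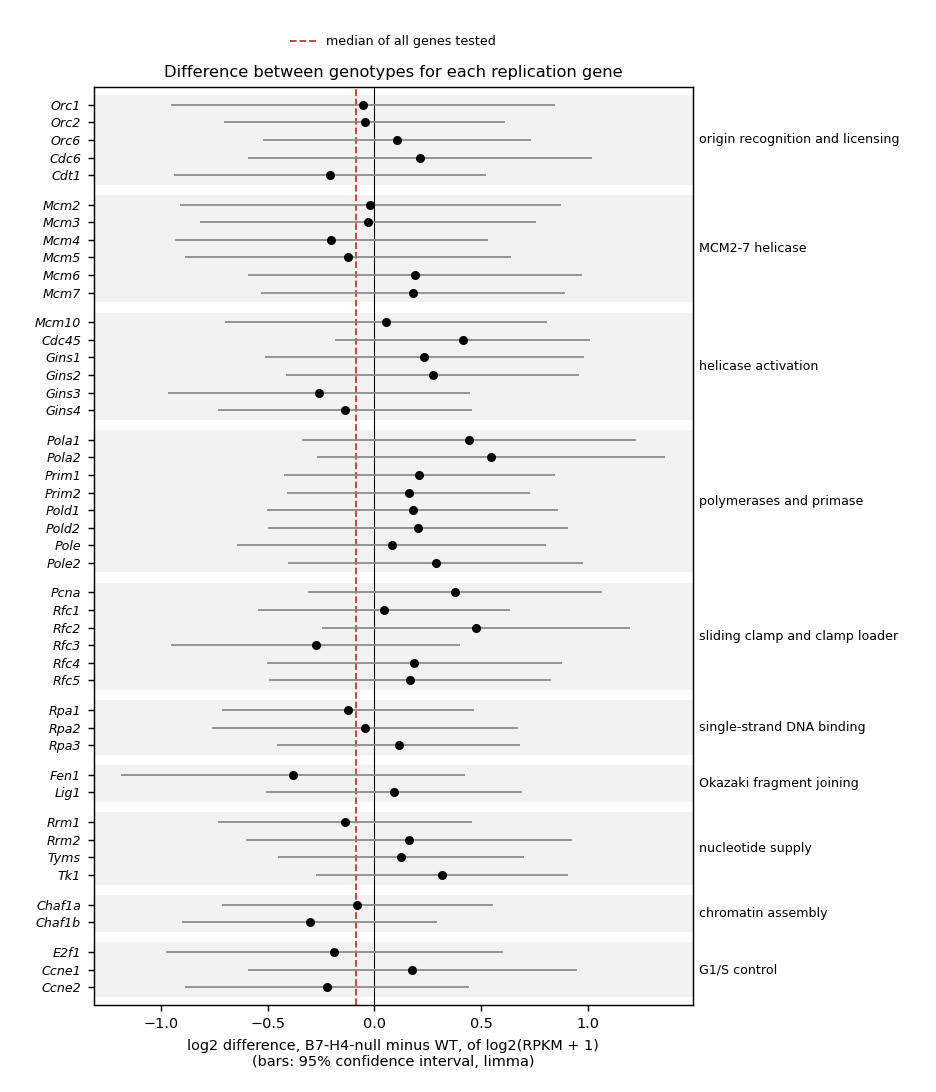
Log2 difference in log2(RPKM + 1), B7-H4-null minus wild type, for each of the 45 genes by role (points), with the 95% confidence interval from limma (bars) and the median of all 12107 genes tested at −0.09 (dashed line). Every interval includes 0, and the points run from −0.38 for Fen1 to 0.55 for Pola2.

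The libraries of the genotypes overlapped for 40 of the 45 members. Both B7-H4-null libraries lay above both wild-type libraries for 4 members (8.89%), against 16% of all genes, and below them for 1 member (2.22%), against 28% of all genes. The 4 were Cdc45, Prim2, Rfc2 and Tk1, and the 1 was Chaf1b. This count depended on the scaling. After median-ratio scaling 10 members lay above and 1 below, with 22.1% and 22.2% of all genes, and the members added were Gins2, Pola1, Prim1, Rpa3, Lig1 and Tyms.

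Levels differed far more between genes than between libraries. Pcna, the clamp, and Mcm6 were the members at the highest levels, and Orc1 and Gins3 those at the lowest. The plot of levels by library shows that the 4 points of a gene mostly lie close together.

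**Figure D2:**
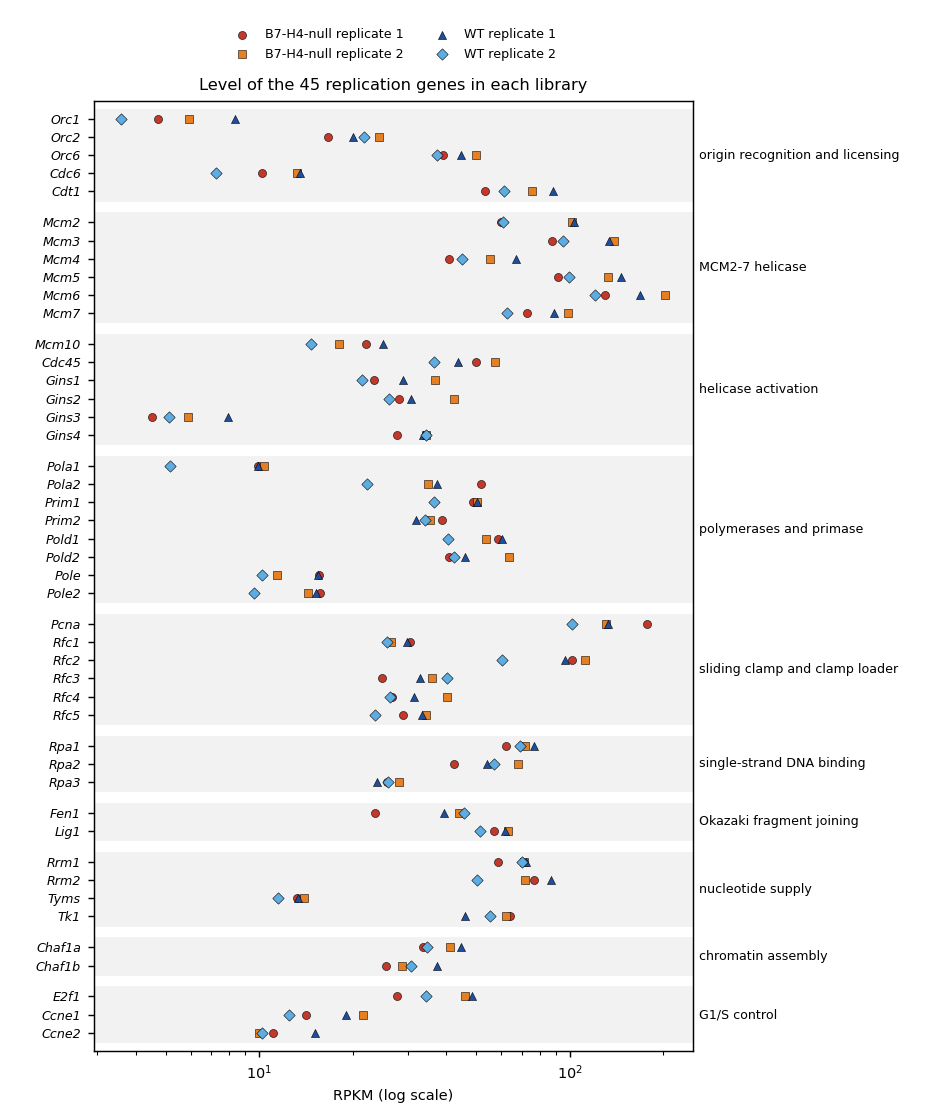
RPKM (log scale) of each of the 45 genes in B7-H4-null replicates 1 and 2 and wild-type replicates 1 and 2, by role. Values run from 3.57 to 203 RPKM, and for 40 genes the libraries of the genotypes overlap.

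Origin recognition and licensing was measured by 5 genes, whose differences had a median of −0.05. Cdt1, which brings the MCM ring to the origin (Entrez ID 67177, on chromosome 8 from 122568015 to 122573130), reached 53.4 and 75.4 RPKM in B7-H4-null cells, against 88.1 and 61.3 RPKM in the wild-type libraries. Wild-type replicate 1 was the highest and B7-H4-null replicate 1 the lowest, so the genotypes overlapped. The log2 difference was −0.21 ± 0.307 (SE, n = 2 each), far from the threshold (limma adjusted p = 0.819). Cdc6, the ATPase that works with Cdt1, had 10.2 and 13.3 RPKM in B7-H4-null and 13.5 and 7.22 RPKM in wild type, where wild-type replicate 1 was again the highest and wild-type replicate 2 the lowest. Of the complex itself, Orc1, its ATPase, had 4.72 and 5.92 RPKM in B7-H4-null, against 8.31 and 3.57 RPKM in wild type. Both wild-type values of Orc1 lay outside the B7-H4-null values, one on each side, and their ratio of 2.32 was the widest gap between replicates among the members. Orc2 had 16.7 and 24.3 RPKM in B7-H4-null and 20.03 and 21.6 RPKM in wild type, and Orc6 38.9 and 49.8 RPKM in B7-H4-null, against 44.5 and 37.4 RPKM in wild type, with overlap in both. Within the group the order of levels was Cdt1, Orc6, Orc2, Cdc6 and Orc1 in all 4 libraries.

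The 6 genes of the MCM helicase showed no common direction between the genotypes, with a median of −0.02, and a marked common pattern among libraries. Mcm6 (Entrez ID 17219, on chromosome 1 from 128331575 to 128359705), whose promoter stretch is printed above, averaged 167 ± 52.0 RPKM in B7-H4-null and 144 ± 33.9 RPKM in wild type (SD, n = 2 each). Single libraries had 129.8 and 203 RPKM in B7-H4-null, against 168 and 120.2 RPKM in wild type. Its log2 difference was 0.19 ± 0.327 (SE, limma adjusted p = 0.846). Mcm4 (Entrez ID 17217, on chromosome 16 from 15623897 to 15637400) had 40.8 and 55.5 RPKM in B7-H4-null, against 67.2 and 44.8 RPKM in wild type, which differed on the log2 scale by −0.20 ± 0.307 (SE, limma adjusted p = 0.825). For both genes the gap between replicates of either genotype was wider than the difference between genotypes.

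The other subunits repeated this. Mcm2 had 60.1 and 102 RPKM in B7-H4-null, against 103 and 61.0 RPKM in wild type. Mcm3 had 87.7 and 139 RPKM in B7-H4-null, against 134 and 94.98 RPKM in wild type, and Mcm5 91.6 and 133 RPKM in B7-H4-null, against 146 and 99.3 RPKM in wild type. Mcm7 had 72.8 and 98.8 RPKM in B7-H4-null and 88.7 and 62.9 RPKM in wild type. Its span overlaps 3 microRNA genes and the gene Ap4m1, whose reads were not separated here. For all 6 subunits B7-H4-null replicate 2 exceeded replicate 1, by 1.36 to 1.69 times, and wild-type replicate 1 exceeded replicate 2, by 1.40 to 1.69 times. Summed over the 6, the level was 482.7 and 731.8 RPKM in B7-H4-null and 707 and 483 RPKM in wild type. Mcm6 was the highest and Mcm4 the lowest of the 6 in every library, with Mcm6 at 3.18 and 3.67 times Mcm4 in B7-H4-null and at 2.50 and 2.68 times in wild type.

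Among the genes that activate the helicase, Cdc45 was the member with the smallest p of all 45. Cdc45 (Entrez ID 12544, on chromosome 16 from 18780447 to 18811972), which joins the MCM ring at the start of S phase, reached 49.99 and 57.3 RPKM in B7-H4-null cells, against 43.6 and 36.6 RPKM in the wild-type libraries. Both B7-H4-null values lay above both wild-type values, on each scaling tried. The log2 difference was 0.41 ± 0.251 (SE, 95% interval −0.19 to 1.011, limma adjusted p = 0.565), so it did not pass. Mcm10, which helps the helicase to open DNA, had 22.1 and 18.0 RPKM in B7-H4-null, within the wild-type values of 25.0 and 14.7 RPKM.

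The 4 GINS subunits did not share a direction. Gins1 had 23.4 and 36.9 RPKM in B7-H4-null, against 29.0 and 21.3 RPKM in wild type, and Gins2 28.2 and 42.2 RPKM in B7-H4-null, against 30.9 and 26.2 RPKM in wild type. Gins3, whose promoter stretch is printed above, had 4.49 and 5.87 RPKM in B7-H4-null, against 7.89 and 5.09 RPKM in wild type, and Gins4 27.7 and 34.4 RPKM in B7-H4-null, against 33.6 and 34.5 RPKM in wild type. The differences were 0.23 and 0.27 for Gins1 and Gins2, and −0.26 and −0.14 for Gins3 and Gins4, with adjusted p of 0.736 to 0.856 (limma) and overlap in all 4. Although the GINS complex holds its subunits in equal number, Gins3 lay well below the others. The level of Gins1 was 5.21 and 6.29 times that of Gins3 in B7-H4-null and 3.67 and 4.19 times in wild type.

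The polymerase and primase genes were the role group whose 8 members all lay above 0, with a median of 0.21, though 0 passed the test and 5 of the 8 changed sign when single libraries were left out. Pola2, the regulatory subunit of polymerase alpha (Entrez ID 18969, on chromosome 19 from 5940543 to 5964238), had 51.9 and 34.9 RPKM in B7-H4-null, against 37.3 and 22.3 RPKM in wild type. B7-H4-null replicate 1 was the highest and wild-type replicate 2 the lowest, while the other B7-H4-null value lay between the wild-type values. Its log2 difference, 0.55 ± 0.342 (SE, 95% interval −0.27 to 1.36, limma adjusted p = 0.571), was the largest among the members. Pola1, the catalytic subunit, had 9.89 and 10.4 RPKM in B7-H4-null, against 9.90 and 5.14 RPKM in wild type. Here wild-type replicate 2 stood alone below the other libraries, and the difference of 0.44 rested on it, at 0.03 without that library.

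Primase and the other polymerases were closer still. Prim1, the catalytic subunit of primase, had 48.8 and 50.3 RPKM in B7-H4-null, against 50.1 and 36.4 RPKM in wild type, again with wild-type replicate 2 alone at the low end. Prim2, its large subunit, had 38.8 and 35.5 RPKM in B7-H4-null, above 32.0 and 34.2 RPKM in wild type without overlap, at a log2 difference of 0.16. Pold1, the catalytic subunit of polymerase delta (Entrez ID 18971, on chromosome 7 from 44532744 to 44548815), was the group's highest gene on average, with 58.8 and 53.6 RPKM in B7-H4-null and 60.5 and 40.4 RPKM in wild type. Its difference was 0.18 ± 0.285 on the log2 scale (SE, limma adjusted p = 0.834). Its partner Pold2 had 40.8 and 63.8 RPKM in B7-H4-null, around wild-type values of 46.0 and 42.2 RPKM. For polymerase epsilon, Pole had 15.6 and 11.4 RPKM in B7-H4-null, against 15.5 and 10.2 RPKM in wild type, and Pole2 15.7 and 14.3 RPKM in B7-H4-null, against 15.2 and 9.62 RPKM in wild type. In these pairs the genotypes overlapped, and wild-type replicate 2 was the lowest library for Pold1, Pole and Pole2.

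In the clamp group, Pcna (Entrez ID 18538, on chromosome 2 from 132249286 to 132253180) averaged 154 ± 32.8 RPKM in B7-H4-null and 118 ± 22.1 RPKM in wild type (SD, n = 2 each). Single libraries gave 177 and 130.4 RPKM in B7-H4-null and 133 and 102 RPKM in wild type, where B7-H4-null replicate 2 fell inside the wild-type range. The log2 difference was 0.38 ± 0.289 (SE, 95% interval −0.31 to 1.07, limma adjusted p = 0.638). Rfc2, a small subunit of the loader that places the clamp (Entrez ID 19718, on chromosome 5 from 134582690 to 134598328), had 102 and 112 RPKM in B7-H4-null, against 96.6 and 60.7 RPKM in wild type. The genotypes did not overlap, by a narrow margin over wild-type replicate 1, and the log2 difference was 0.48 ± 0.302 (limma adjusted p = 0.576). Without wild-type replicate 2 it was 0.15.

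The other loader subunits gave no common direction. Rfc1, the large subunit, had 30.6 and 26.6 RPKM in B7-H4-null, against 29.8 and 25.7 RPKM in wild type. Rfc3, whose promoter stretch is printed above, had 24.9 and 35.8 RPKM in B7-H4-null, against 32.9 and 40.2 RPKM in wild type and was, with −0.28, the only one of the group below 0. Rfc4 had 26.8 and 40.3 RPKM in B7-H4-null and 31.5 and 26.3 RPKM in wild type, and Rfc5 28.9 and 34.5 RPKM in B7-H4-null, against 33.3 and 23.6 RPKM in wild type. Each of these 4 overlapped between genotypes. After Pcna, Rfc2 was the highest of the group in every library, at 3.33 and 4.22 times Rfc1 in B7-H4-null and 3.24 and 2.36 times in wild type.

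None of the 3 subunits of replication protein A, which coats single-stranded DNA, was called, and all 3 overlapped between the genotypes. Rpa1, the large subunit (Entrez ID 68275, on chromosome 11 from 75300259 to 75348454), had 62.1 and 72.0 RPKM in B7-H4-null, against 76.7 and 69.4 RPKM in wild type, with a log2 difference of −0.12 ± 0.248 (SE, limma adjusted p = 0.869). Rpa2 had 42.4 and 68.2 RPKM in B7-H4-null, on either side of 54.2 and 56.9 RPKM in wild type. Rpa3, the small subunit, had 25.8 and 28.3 RPKM in B7-H4-null, against 23.9 and 25.9 RPKM in wild type. The group's median was −0.05, and the order Rpa1, Rpa2, Rpa3 held in each library.

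Fen1, the nuclease that trims the flaps of Okazaki fragments (Entrez ID 14156, on chromosome 19 from 10199132 to 10204393), gave the lowest difference of the members. It had 23.6 and 43.9 RPKM in B7-H4-null, against 39.3 and 45.5 RPKM in wild type, differing by −0.38 ± 0.338 on the log2 scale (SE, 95% interval −1.19 to 0.43, limma adjusted p = 0.689). B7-H4-null replicate 1 alone was low, and without it the difference was 0.05. Lig1, the ligase that seals the trimmed fragments (Entrez ID 16881, on chromosome 7 from 13277175 to 13311426), had 56.9 and 63.3 RPKM in B7-H4-null and 61.9 and 51.2 RPKM in wild type, and differed by 0.09 ± 0.251 on the log2 scale (SE, limma adjusted p = 0.910). The libraries of Lig1 overlapped, and Lig1 exceeded Fen1 in each of them, by 2.41 and 1.44 times in B7-H4-null and 1.58 and 1.12 times in wild type.

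Nucleotide supply was the steadiest group between the B7-H4-null replicates. Rrm2, the regulated small subunit of ribonucleotide reductase (Entrez ID 20135, on chromosome 12 from 24708254 to 24714146), had 76.7 and 71.5 RPKM in B7-H4-null, inside the wild-type values of 86.9 and 50.2 RPKM, with a log2 difference of 0.16 ± 0.320 (SE, limma adjusted p = 0.869). Rrm1, the large subunit, had 58.8 and 71.0 RPKM in B7-H4-null, against 72.5 and 69.9 RPKM in wild type. Tk1, the thymidine kinase of cycling cells (Entrez ID 21877, on chromosome 11 from 117815519 to 117826087), had 64.1 and 62.1 RPKM in B7-H4-null, against 45.9 and 55.4 RPKM in wild type, without overlap. It differed by 0.32 ± 0.248 on the log2 scale (SE, 95% interval −0.28 to 0.91, limma adjusted p = 0.648). Tyms, which makes thymidylate, had 13.2 and 13.96 RPKM in B7-H4-null and 13.4 and 11.5 RPKM in wild type. Rrm2 lay above Rrm1 in 3 libraries and below it in wild-type replicate 2, the ratio of Rrm1 to Rrm2 being 0.766 and 0.993 in B7-H4-null and 0.834 and 1.39 in wild type.

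The subunits of chromatin assembly factor 1, which places histones on new DNA, were both below 0. Chaf1b (Entrez ID 110749, on chromosome 16 from 93883900 to 93906115) had 25.6 and 28.9 RPKM in B7-H4-null, against 37.2 and 30.7 RPKM in wild type. It was the only member whose B7-H4-null libraries both lay below both wild-type libraries, and its log2 difference of −0.30 ± 0.250 (SE, limma adjusted p = 0.666) did not pass. Chaf1a (Entrez ID 27221, on chromosome 17 from 56040416 to 56068026) had 33.5 and 41.2 RPKM in B7-H4-null and 44.6 and 34.8 RPKM in wild type, with overlap. Its difference of −0.08 ± 0.266 (SE, limma adjusted p = 0.925) changed sign to 0.02 after median-ratio scaling.

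Genes that drive entry into S phase were not called either. E2f1, an activator of the replication genes (Entrez ID 13555, on chromosome 2 from 154559400 to 154569892), had 27.8 and 46.0 RPKM in B7-H4-null, against 48.5 and 34.5 RPKM in wild type, with a log2 difference of −0.19 ± 0.331 (SE, limma adjusted p = 0.851). The cyclin Ccne1, a partner of the kinase CDK2, had 14.2 and 21.6 RPKM in B7-H4-null, against 19.0 and 12.4 RPKM in wild type. Ccne2 (Entrez ID 12448, on chromosome 4 from 11190433 to 11204779) had 11.1 and 9.97 RPKM in B7-H4-null and 15.1 and 10.2 RPKM in wild type, which differed by −0.22 ± 0.278 on the log2 scale (limma adjusted p = 0.780). All 3 overlapped, and E2f1 exceeded Ccne1 and Ccne1 exceeded Ccne2 in every library.

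For most members the libraries of a genotype differed more from each other than the genotypes did. The difference between genotypes was smaller than the wider of the 2 replicate gaps for 41 of 45 members (91.1%), against 68.6% of all genes tested. The median size of the gap, in log2(RPKM + 1), was 0.32 between the B7-H4-null replicates and 0.45 between the wild-type replicates, against 0.18 between the genotypes. Over all genes these were 0.32, 0.29 and 0.28. The genotype difference is between means of 2 libraries, while a replicate gap is between single libraries. The former tends to be the smaller even without an effect of genotype, so both comparisons are set beside all genes. Wild-type replicate 1 lay above replicate 2 for 37 of 45 members (82.2%), against 46.4% of all genes, and B7-H4-null replicate 2 lay above replicate 1 for 34 (75.6%), against 61.2%. Wild-type replicate 2 was the lowest library for 24 members and B7-H4-null replicate 1 for 17. These counts describe the libraries and are not tests, since genes are not replicates.

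The role groups did not follow the same pattern in the B7-H4-null libraries. Licensing genes, MCM subunits, replication protein A, the Okazaki pair and the chromatin assembly pair were higher in replicate 2 for every member. Of the 8 polymerase and primase genes only Pola1, Prim1 and Pold2 were, and Pola2 had 0.673 times and Pcna 0.738 times the level of replicate 1. At the other end Fen1 in replicate 2 had 1.86 times its level in replicate 1. In wild type the polymerase group had the widest median gap, 0.57, with 7 of 8 genes higher in replicate 1. Across the 45 members, Pearson's r between the gap of B7-H4-null replicate 2 minus 1 and the gap of wild-type replicate 1 minus 2 was −0.20, and over the 12107 genes it was −0.25. The 4 libraries entered both, and the values are a description across genes.

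**Figure D3:**
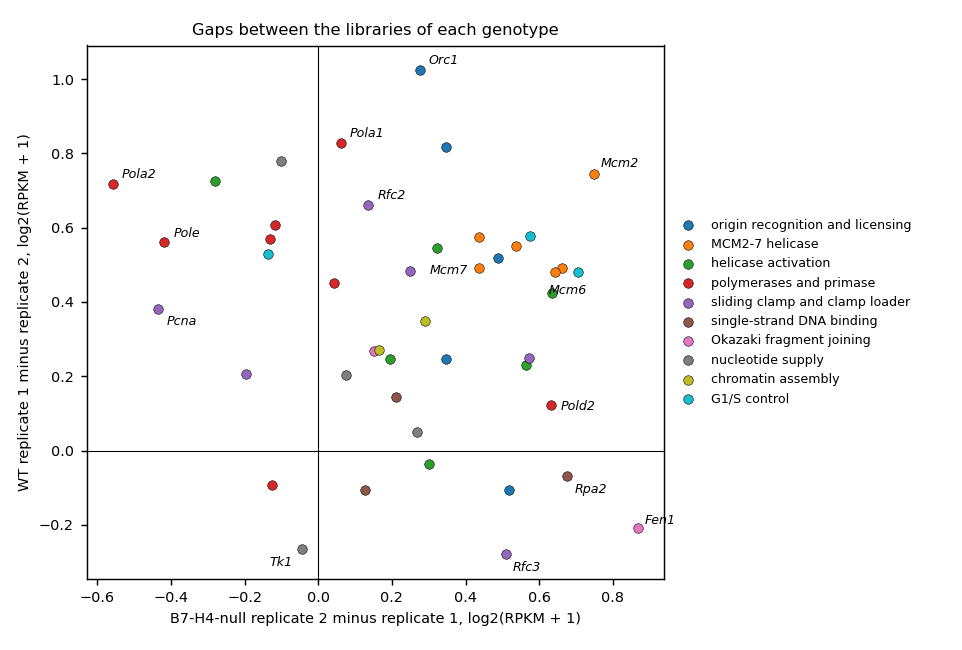
Gap in log2(RPKM + 1) between the B7-H4-null replicates (horizontal, replicate 2 minus 1) and between the wild-type replicates (vertical, replicate 1 minus 2) for the 45 genes, coloured by role. The 6 MCM subunits (orange) lie together at the upper right, while Pola2, Pole and Pcna lie at the upper left and Fen1, Rpa2 and Rfc3 at the lower right.

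Other genes of the same processes were read from lists written by function. Of 34 further replisome genes 0 passed in either direction, with 0 at an unadjusted p under 0.05, 6 lay higher (17.6%, against 16% of all genes) and 5 lower (14.7%, against 28%) without overlap, and the median difference was −0.003. Nasp, a histone chaperone, had 122 and 73.3 RPKM in B7-H4-null, against 70.7 and 48.1 RPKM in wild type (log2 difference 0.69 ± 0.343, SE, limma adjusted p = 0.486). Rnaseh2a, Mcm8 and Pclaf followed by p, at 0.45, 0.55 and 0.38. Of 35 further genes of nucleotide synthesis 0 passed. At an unadjusted p under 0.05, 2 of the 35 were higher and 0 lower, against 612 higher and 872 lower of the 12107 genes tested. Without overlap 8 lay higher (22.9%, against 16% of all genes) and 1 lower (2.86%, against 28%), and the median was 0.17. Impdh2, which commits inosine monophosphate to guanine nucleotides, had 58.0 and 29.2 RPKM in B7-H4-null, against 20.1 and 12.1 RPKM in wild type, which differed by 1.34 ± 0.3998 on the log2 scale (limma adjusted p = 0.311). Dhodh, an enzyme of pyrimidine synthesis, had 19.3 and 22.8 RPKM in B7-H4-null, against 14.3 and 10.2 RPKM in wild type (adjusted p = 0.358), and Dguok and Gart had differences of 0.52 and 0.53.

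Of 23 further regulators of the G1 to S step 0 passed. At an unadjusted p under 0.05, 4 of the 23 were lower and 0 higher, against 872 lower and 612 higher of the 12107 genes tested. Without overlap 0 lay higher, against 16% of all genes, and 7 lower (30.4%, near the 28% of all genes), and the median was −0.12. E2f2, an E2F activator, had 8.31 and 18.8 RPKM in B7-H4-null, against 22.9 and 33.8 RPKM in wild type, which differed by −1.09 ± 0.406 on the log2 scale (SE, limma adjusted p = 0.364). E2f8, an E2F repressor, had 31.5 and 24.3 RPKM in B7-H4-null, against 54.7 and 41.0 RPKM in wild type (adjusted p = 0.362). Rbl1, a pocket protein that binds E2F factors, had 8.51 and 12.8 RPKM in B7-H4-null, against 20.1 and 16.2 RPKM in wild type (adjusted p = 0.383), and its relative Rbl2 had 14.1 and 10.1 RPKM in B7-H4-null, against 20.9 and 20.5 RPKM in wild type (adjusted p = 0.349).

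Markers of G2 phase and mitosis gave 0 calls among 16 genes and 0 at an unadjusted p under 0.05, with a median of −0.21. Without overlap 1 lay higher (6.25%, against 16% of all genes) and 5 lower (31.2%, near the 28% of all genes). Ccnb1, the mitotic cyclin, had 6.00 and 10.3 RPKM in B7-H4-null, against 10.4 and 15.9 RPKM in wild type (log2 difference −0.64, limma adjusted p = 0.503), and Plk1, a mitotic kinase, 21.5 and 19.8 RPKM in B7-H4-null, against 25.4 and 29.7 RPKM in wild type. The differences of Bub1 and Cenpa were 0.35 and −0.33. Between the wild-type replicates these markers were ordered unlike the replication genes, with 13 of 16 higher in replicate 2, against 6478 of the 12107 genes tested. Their summed level was 601 RPKM in wild-type replicate 1 and 768.9 RPKM in replicate 2. In B7-H4-null the sum was 602.5 and 603 RPKM.

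**Figure D4:**
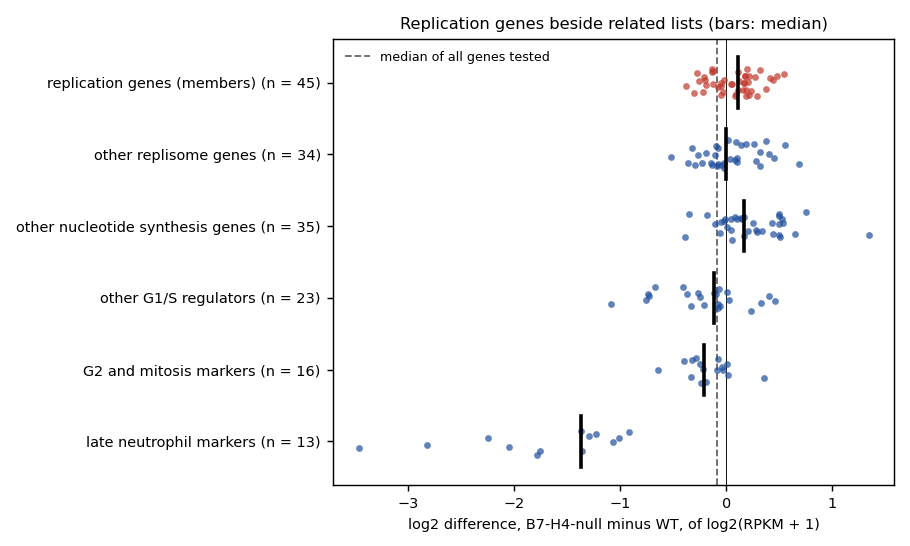
Log2 difference in log2(RPKM + 1), B7-H4-null minus wild type, for each tested gene of the 45 members and of 5 related lists (points), with the median of each list (bars) and of all genes tested (dashed line, −0.09). The members run from −0.38 to 0.55 around a median of 0.11, and the late neutrophil markers lie between −3.46 and −0.92.

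Markers of other cells and stages moved between the libraries beside these values. The 13 late neutrophil markers summed to 7353 and 9163 RPKM in B7-H4-null, against 25133 and 15145 RPKM in wild type. Each of the 13 was lower in both B7-H4-null libraries, against 28% of all genes, with a median difference of −1.37. Of them 0 passed the test, and 12 were lower at an unadjusted p under 0.05, against 872 of the 12107 genes tested. The sum was also higher in wild-type replicate 1 than in replicate 2. So were 10 of the 13 markers (76.9%, against 46.4% of all genes), while 3 were higher in replicate 2. The same order held for 37 of the 45 replication genes and for Kit (24.0 RPKM in wild-type replicate 1 and 7.19 RPKM in replicate 2). The sort required c-Kit, which late neutrophils mostly lack. In bulk RNA fewer cells of a type and less RNA per cell cannot be told apart. The part of these markers in the replication values was not tested. Several defining genes of lymphoid and erythroid cells were at or near 0. Of 7 B cell markers Pax5 was at 0 in every library and Ms4a1 stayed at 0.0450 RPKM or less, and the list's sum of 60.5 and 63.5 RPKM in B7-H4-null and 36.3 and 46.4 RPKM in wild type was mostly Cd79b. Vpreb1, a pre-B cell receptor gene, had 1.66 and 2.05 RPKM in B7-H4-null, against 0 and 0.131 RPKM in wild type, without overlap (limma adjusted p = 0.173). Of 8 T and NK cell markers Cd3e, Cd3g, Cd4 and Cd8a stayed at 0.140 RPKM or less, and the sum of 21.1 and 39.5 RPKM in B7-H4-null and 31.6 and 29.8 RPKM in wild type was mostly Nkg7. Of 7 erythroid markers in the table Klf1 lay between 0.301 and 0.554 RPKM. The erythroid sum was mostly Tfrc, which cycling cells also express, at 171 and 56.1 RPKM in B7-H4-null and 70.6 and 26.1 RPKM in wild type.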

How the data were processed

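RNA was sequenced from 2 B7-H4-null and 2 wild-type samples with TruSeq version 2 libraries, which do not mark strand, on a HiSeq2500, per the labels. The submitters' processing notes name TopHat2 2.0.12 and build GRCm38. Neither the counting program nor its annotation is given in the sources used here. The authors deposited RPKM values, 1 column per library and 1 row per Entrez gene ID, and the unit was taken from the values. Symbols came from RefSeq (GRCm38.p6) for 25275 IDs and from GENCODE M21 for 18, and 1886 IDs had none. Gene coordinates are those of RefSeq on GRCm38.p6. Without strand, reads of overlapping genes cannot be told apart, and the spans of 20 of the 45 members overlap another gene.

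Whole reads were recovered from the steps between low values, as the smallest gene length that made every value whole to within 0.001 read, for 14608 of the 14608 genes above 0 in every library. The 12107 genes that reached 1 RPKM in 2 or more libraries entered limma 3.58.1 (R 4.3.3) on log2(RPKM + 1). The model held genotype alone and a trend of variance on mean, tests were two-sided, and Benjamini-Hochberg adjustment ran over all genes tested at 0.05. Log2 differences on this scale understate the change of low genes. The script was tested on simulated data. An exact permutation test of 2 against 2 cannot go below p = 0.333, so none was used. Alternatives were no filter, a filter at 5 RPKM, a pseudocount of 0.1, median-ratio and quantile scaling, no trend, voom, a replicate block and leaving out each library.

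The members, their role groups and the other lists were chosen with earlier results of these data known, so they are no independent support for any direction. All members are named. Log2 difference, SE and adjusted p are given for the gene with the smallest p and the gene with the highest mean of each role group. Up to 4 genes with the smallest p are named from each other list. The late neutrophil, sort marker and other cell lists were fixed with them, and 2 of their genes, Azu1 and Hbb-bt, had no match in the table. Vpreb1, Itgb2, Mpo, Prss57, Elane and Cx3cr1 are named after their values were seen. Protein sequences are not shown. Promoter stretches are RefSeq's. A run of bases after the start matched a GENCODE M21 transcript of the gene in sense for 37 of 43 windows and in antisense for 0. The 6 without a match include Mcm6 and Mcm5.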

Additional observations from a re-analysis of the deposited data

How the results depend on the processing

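No member was called under any of the 12 alternatives. Over all genes tested, 5 were called higher and 7 lower. Without the filter limma called 0 in each direction, voom called 6 and 10, and the replicate block called 12 and 9. Leaving out 1 library gave 0 to 36 higher and 0 to 20 lower, with 0 of both without either B7-H4-null library and the most without wild-type replicate 1. Members whose genotypes did not overlap numbered 4 higher and 1 lower, with 16% and 28% of all genes. They numbered 10 and 1 after median-ratio scaling, with 22.1% and 22.2% of all genes, and 7 and 3 after quantile normalization. Pseudocount, trend, voom and block leave the 4 and 1 as they are. With a library left out they numbered 5 to 26 higher and 2 to 17 lower. Most were higher without wild-type replicate 1 and most lower without B7-H4-null replicate 2. There 1 library stands against 2, so a lack of overlap is easier to reach, and these counts cannot be set beside 4 and 1. The share of all genes is not given for quantile normalization or with a library left out. The members' median difference ran from −0.08 without B7-H4-null replicate 2 to 0.23 without wild-type replicate 1.

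After median-ratio scaling the difference changed sign for Orc1 (0.0328), Orc2 (0.0521), Mcm2 (0.0822), Mcm3 (0.0732), Rpa2 (0.0555) and Chaf1a (0.0207), and after quantile normalization for Orc1 (0.0386) and Orc2 (0.00550). Leaving out single libraries changed the sign of 32 members, whose lowest and highest log2 differences were as follows, for Orc1 (−0.56 to 0.46), Orc2 (−0.31 to 0.21), Orc6 (−0.067 to 0.28), Cdc6 (−0.20 to 0.62), Cdt1 (−0.47 to 0.050), Mcm2 (−0.39 to 0.35), Mcm3 (−0.36 to 0.30), Mcm4 (−0.49 to 0.085), Mcm5 (−0.40 to 0.15), Mcm6 (−0.13 to 0.51), Mcm7 (−0.064 to 0.43), Mcm10 (−0.31 to 0.42), Gins1 (−0.083 to 0.55), Gins2 (−0.010 to 0.55), Gins3 (−0.53 to 0.011), Gins4 (−0.29 to 0.014), Prim1 (−0.015 to 0.44), Pold1 (−0.11 to 0.46), Pold2 (−0.11 to 0.52), Pole (−0.20 to 0.36), Pole2 (−0.017 to 0.59), Rfc1 (−0.060 to 0.15), Rfc4 (−0.099 to 0.47), Rfc5 (−0.075 to 0.41), Rpa2 (−0.38 to 0.29), Fen1 (−0.81 to 0.053), Lig1 (−0.044 to 0.22), Rrm2 (−0.23 to 0.55), Chaf1a (−0.25 to 0.095), E2f1 (−0.54 to 0.16), Ccne1 (−0.11 to 0.47) and Ccne2 (−0.49 to 0.042). The other 13 kept their sign in all 4. The causes were not tested.

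Replicate numbers are shared by the genotypes, with 2 pairs and no label that ties them. Deviations of same-numbered libraries correlated at 0.247 over all genes tested and 0.201 over the members. These are the correlations of the replicate gaps given above with the sign turned, and they leave out a shift shared by the genes. For 28 members B7-H4-null replicate 2 and wild-type replicate 1 were the higher libraries of their genotypes, and for 2 members the lower. Both replicates 1 were the higher for 9 members, and both replicates 2 for 6. The replicate block gave 0 calls among members and 1 at an unadjusted p under 0.05, Pola2 (limma adjusted p = 0.244). Members rested on at least 102 reads per library. With 2 libraries a group, limma sets the width of an interval from the gene's own replicate spread and from the trend of variance over all genes tested. The own spread of a gene therefore does not set its interval alone. Prim2 had small replicate gaps of −0.126 in B7-H4-null (replicate 2 minus 1) and −0.092 in wild type (replicate 1 minus 2), and an SE of 0.239.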

Other observations

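Genes often used as references in expression assays were read as a further list. Without overlap between the genotypes, 6 of 10 such genes (60%, against 16% of all genes) lay higher in B7-H4-null and 1 lay lower (10%, against 28%), with a median log2 difference of 0.36. B2m, the light chain of MHC class I, had 1138 and 1135 RPKM in B7-H4-null, against 631 and 702 RPKM in wild type. Gapdh, a glycolytic enzyme, had 30.3 and 26.3 RPKM in B7-H4-null, against 19.0 and 13.3 RPKM in wild type. None of the 10 passed the test (limma adjusted p from 0.336 upward). At an unadjusted p under 0.05, 3 of the 10 were higher and 0 lower, against 612 higher and 872 lower of the 12107 genes tested.

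Marker sums of the remaining lists are given as values. The 5 primary granule genes matched summed to 7229 and 11540 RPKM in B7-H4-null, against 8061 and 8970 RPKM in wild type. The genes of this list did not share a direction. Without overlap 3 lay higher (60%, against 16% of all genes) and 1 lower (20%, against 28%). At an unadjusted p under 0.05, 2 of the 5 were higher and 0 lower, against 612 higher and 872 lower of the 12107 genes tested, and 0 were called. Mpo had 2153 and 3388 RPKM in B7-H4-null, against 1194 and 979.8 RPKM in wild type (limma adjusted p = 0.256), and Prss57 had 74.03 and 98.0 RPKM in B7-H4-null, against 54.8 and 34.4 RPKM in wild type (adjusted p = 0.331). Elane lay lower, with 1302 and 2749 RPKM in B7-H4-null, against 2810 and 3339 RPKM in wild type (adjusted p = 0.558). The macrophage and monocyte list summed to 1253 and 1513 RPKM in B7-H4-null, against 891.5 and 1132 RPKM in wild type, most of it Ly6c2. Of its 5 tested genes 1, Cx3cr1, was higher at an unadjusted p under 0.05 (limma adjusted p = 0.258), against 612 of the 12107 genes tested. The megakaryocyte list summed to 29.1 and 16.1 RPKM in B7-H4-null and 29.97 and 16.2 RPKM in wild type, and the stromal and endothelial list to 38.1 and 32.2 RPKM in B7-H4-null, against 18.7 and 19.1 RPKM in wild type, most of it Pecam1 (limma adjusted p = 0.259).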
